A study of Homo sapiens with 10 samples.

Results

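The 48 genes described here encode proteins that carry newly made cargo out of the endoplasmic reticulum (ER) and return escaped proteins to it. They were taken by gene symbol, and all 48 were found among the 58684 symbols of the annotation. By role they are 8 subunits of the COPI coat, 12 genes of the COPII coat and of the SAR1 cycle that assembles it, 8 p24 proteins, 4 ARF GTPases with the ARF exchange factor GBF1, 3 tethers, 5 SNAREs and 7 cargo or retrieval receptors. A total of 44 passed the filter on low values (more than 3 RPM, which is counts scaled to the same library total, in at least 20% of the libraries) and were tested among 11630 protein-coding genes. The other 4 (SEC24C, TMED1, ARF5 and TRAPPC1) were close to 0 counts in these tables and are given by their values only.

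Transport between the ER and the Golgi runs in both directions. Forward carriers form when PREB, also called SEC12, loads SAR1 with GTP. SAR1 then recruits the inner coat of SEC23 and SEC24, which picks cargo, and the outer coat of SEC13 and SEC31, with SEC16A marking the exit site. Backward carriers form when GBF1 loads ARF proteins with GTP and these recruit the COPI coat as one preassembled complex. The p24 proteins cycle between both compartments in heteromeric assemblies, KDEL receptors bring back ER residents, and LMAN1, LMAN2, SURF4 and the ERGIC proteins recognise groups of cargo. An enterocyte relies on this route to deliver brush border enzymes, junction proteins and lipoproteins.

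The study asked what reduction of the long noncoding RNA LHFPL3-AS2 does to intestinal epithelial cells. The model was Caco-2, a human colon carcinoma line that takes on enterocyte features when it grows as a monolayer. All cells derived from a single puromycin-selected clone that expressed dCas9-KRAB, a Cas9 that binds DNA without cutting it, fused to a repressor domain. They then received, by lentivirus under hygromycin selection, guide g1 (3 libraries), guide g2 (2 libraries) or an empty guide plasmid (gCtl, 5 libraries). The libraries were 3' end (QuantSeq) libraries, and nothing in the labels says which came from separate cultures, so that p-values measure the spread between these libraries, which may be technical. Replicate numbers below only tell libraries of a group apart. Comparisons pooled the libraries labelled g1 and g2 against gCtl, and then took each guide against gCtl and g2 against g1. Both guide comparisons share the same 5 gCtl libraries.

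Total estimated counts ranged from 3838803 to 8730468 per library. LHFPL3-AS2 itself, the target, lay between 0.840 and 3.73 RPM in gCtl and between 2.03 and 6.01 RPM in g1 and g2 (difference of log2(RPM + 1) 0.47, exact two-sided permutation p = 0.19). At this low level no reduction was detectable in these libraries. The study reported a reduction of this RNA with both guides by quantitative PCR. Those values were not analysed here, and g1 and g2 are used below as labels. Mitochondrially encoded RNA took 18.3% to 23.97% of counts in gCtl, 19.0% to 20.6% in g1, and 16.8% and 12.04% in g2. Of 10 Caco-2 epithelial markers all but CDX1 exceeded 3 counts in some library, and their summed level was 1901 to 2418 normalised CPM (RPM scaled by edgeR's trimmed mean of M values, TMM) in gCtl, 1827 to 2399 in g1 and 2101 to 2104 in g2. Of 10 markers of fibroblasts, blood and endothelium, 3 (CD79A, LUM and HBB) never exceeded 3 counts, and the summed level was 18.4 to 27.9 CPM in gCtl, 26.2 to 40.8 in g1 and 28.5 to 32.6 in g2. By the same test as for the members, 0 of the 9 epithelial and 0 of the 3 other markers tested were called in the pooled comparison by edgeR or DESeq2 (at an unadjusted p under 0.05, 2 lower and 1 higher, and 0 lower and 2 higher). With g2 the keratin KRT18 was lower (log2 fold change -0.78 ± 0.28, adjusted p = 0.0492) and KRT20 was higher (1.91 ± 0.40, adjusted p = 0.00306), the latter also against g1 (1.65 ± 0.44, adjusted p = 0.0407). With g1 the endothelial marker PECAM1 was higher (1.29 ± 0.37, adjusted p = 0.0214). The part of these markers in the results was not tested.

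In the pooled comparison 9 members were lower and 1 was higher. A gene was called when its adjusted p was at most 0.05 and its fold change at least 1.5. Lower were COPE, SEC13, PREB, TMED3, TMED9, YKT6, KDELR2, LMAN2 and ERGIC3, and higher was GBF1. Among all genes tested, 11.0% were called lower and 8.12% higher (19.2% in either direction). The median log2 fold change was -0.19 over the 44 members and 0.02 over all genes tested. In 6 members each guide library lay below each gCtl library and in 1 each lay above, where 8.37% and 7.11% of all genes tested did so. A log2 fold change below 0 was seen in 31 of the 44, and in 48.2% of all genes tested. Against gCtl, g1 had 7 members lower and 1 higher (9.97% and 6.81% of all genes, 16.8% in either direction), and g2 had 9 lower and 1 higher (13.0% and 10.7%, 23.7% in either direction). These were bulk libraries, in which a lower share of counts in each cell and fewer cells with the RNA cannot be told apart.

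**Figure D1:**
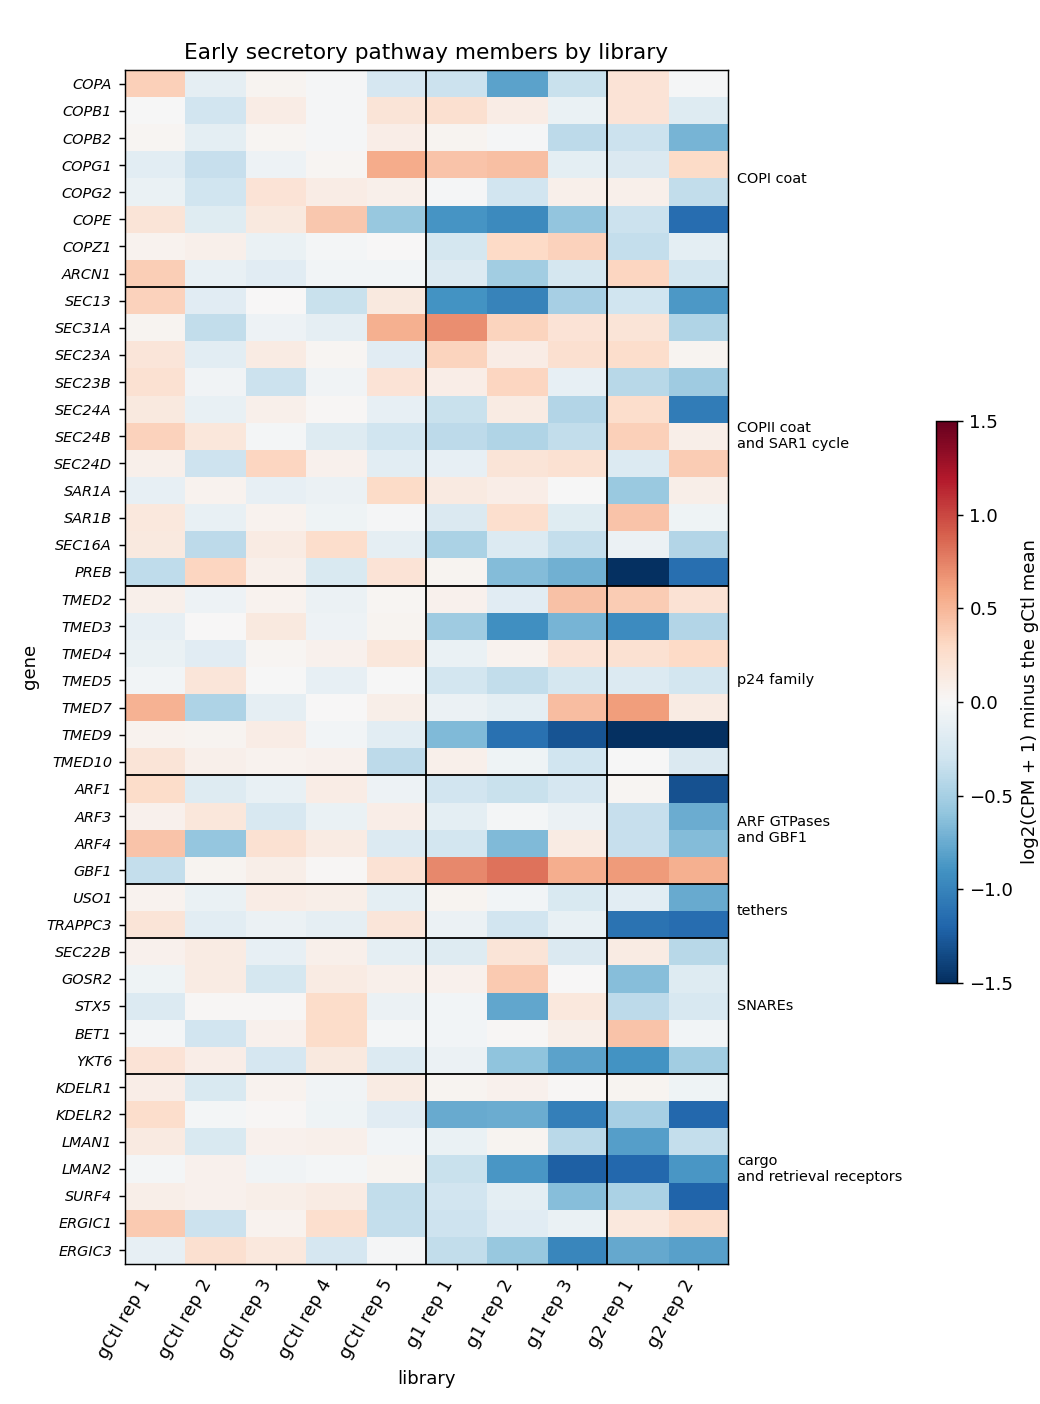
Each row is 1 of the 44 members tested, grouped by role, and each column a library. Colour gives log2(CPM + 1) minus the mean of the 5 gCtl libraries (blue lower, red higher, colours saturate at 1.5 in either direction), and TMED9, KDELR2, LMAN2, TMED3 and ERGIC3 are blue in all g1 and g2 columns while GBF1 is red.

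The 9 members called lower in the pooled comparison had a median transcript length, weighted by counts, of 1447 bases and a median GC content of 55.2%, against 2544 bases and 44.3% in the 34 members that were not called and 2789 bases and 47.4% over all genes tested. With a smooth trend on transcript length removed from each library, 4 of the 44 members were called lower, all among these 9 (TMED3, TMED9, KDELR2 and LMAN2). Over all genes tested, 9.47% were called lower in that setting. The length used for TMED3, 8440 bases, rests in part on counts assigned to a transcript of 16555 bases. Its pooled log2 fold change was -0.87 with the length trend removed and -0.39 (edgeR adjusted p = 0.113) over coding transcripts alone. With trends on GC content and length both removed, an alternative added after the data were seen, the same 4 were called lower. There 8.97% of all genes tested were called lower.

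Among the cargo and retrieval receptors, 3 of 7 were lower in the pooled comparison (KDELR2, LMAN2 and ERGIC3) and none was higher by edgeR or DESeq2, also at an unadjusted p under 0.05. The median log2 fold change of this group was -0.53, and its summed level was 795 to 892 CPM in gCtl and 540 to 697 CPM in g1 and g2. KDELR2 is one of the receptors that recognise the KDEL signal of ER residents in the Golgi and return them by COPI. Its normalised level (gene ENSG00000136240.9, chr7:6445953-6484242, GRCh38, minus strand) was 92.3, 75.3, 77.6, 73.4 and 68.1 CPM in gCtl, 44.99, 45.6 and 37.4 in g1, and 54.1 and 33.4 in g2. All 5 guide libraries lay below the lowest gCtl library, and the difference was 1.80-fold (log2 fold change -0.84 ± 0.15 SE, adjusted p = 0.0012). For g1 the difference was -0.86 ± 0.17 (adjusted p = 0.00273). For g2 it was -0.82 ± 0.20 (adjusted p = 0.00667), which missed the call without g2 replicate 2 (-0.51, adjusted p = 0.115).

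LMAN2, also called VIP36, is a lectin that binds high-mannose glycans of glycoproteins in the early secretory pathway. It measured 175, 186, 172, 174 and 183 CPM in gCtl, 141, 97.1 and 75.6 in g1, and 78.3 and 96.6 in g2 (ENSG00000169223.14, chr5:177331562-177351852, minus strand). The gCtl libraries were close together (178 ± 6.43, SD, n = 5), g1 was spread widely (105 ± 33.6, n = 3), and no guide library reached the gCtl range. The pooled difference was 1.82-fold (log2 fold change -0.87 ± 0.16, adjusted p = 0.00181), with -0.77 ± 0.18 for g1 (adjusted p = 0.00671, and -0.56, under the fold minimum, with GC and length trends removed) and -1.03 ± 0.21 for g2 (adjusted p = 0.00251).

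ERGIC3 cycles between the ER-Golgi intermediate compartment and the ER and acts in the export of selected cargo. Its level was 114, 146, 139, 104 and 123 CPM in gCtl, 96.1, 83.2 and 62.8 in g1, and 72.7 and 70.3 in g2 (ENSG00000125991.18, chr20:35542021-35557634, plus strand). The groups did not overlap, the narrowest gap being that between gCtl replicate 4 and g1 replicate 1. The pooled difference was 1.63-fold (log2 fold change -0.70 ± 0.15, adjusted p = 0.00358). With the length trend removed it was -0.36 (adjusted p = 0.0837). About 91.7% of its gCtl counts and 85.3% of its counts in g1 and g2 were assigned to 1 coding transcript of 520 bases. With g1 alone the value was -0.64 ± 0.16 (adjusted p = 0.0121) and missed the call without gCtl replicate 2 (-0.57, under the fold minimum) or without g1 replicate 3 (-0.50, adjusted p = 0.0659). With g2 it was -0.81 ± 0.19 (adjusted p = 0.00622).

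SURF4, a multipass cargo receptor for soluble secretory proteins including lipoproteins, was called with g2 alone. It measured 102, 101, 103, 105 and 74.6 CPM in gCtl, 78.5, 86.9 and 61.3 in g1, and 68.8 and 41.3 in g2 (ENSG00000148248.13, chr9:133361449-133376166, minus strand). Both g2 libraries were below all gCtl libraries, but g1 overlapped gCtl through gCtl replicate 5. With g2 it differed by -0.82 ± 0.21 (adjusted p = 0.0113), and with g1 by -0.36 ± 0.18 (adjusted p = 0.17). The difference between g2 and g1 did not pass the test (-0.46 ± 0.23, adjusted p = 0.263). The g2 call rested on g2 replicate 2, without which it was -0.49 (adjusted p = 0.175). In the pooled comparison SURF4 had a log2 fold change of -0.53 ± 0.18 (adjusted p = 0.0423), under the fold minimum, and was called without gCtl replicate 5, g1 replicate 1 or g1 replicate 2 (-0.59 to -0.64).

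The remaining receptors were not called. KDELR1 had a pooled log2 fold change of 0.02 ± 0.12 (adjusted p = 0.938) and spanned 59.9 to 76.3 CPM in gCtl and 66.9 to 73.6 CPM in the guide libraries. For LMAN1, also called ERGIC-53, the lectin that exports coagulation factors and other glycoproteins, the value was -0.31 ± 0.16 (adjusted p = 0.164), and with g2 -0.58 ± 0.18 (adjusted p = 0.026), just under the fold minimum. ERGIC1, a partner of ERGIC3, gave -0.04 ± 0.17 (adjusted p = 0.884).

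Of the 7 p24 proteins tested, 2 were lower in each comparison with gCtl (TMED3 and TMED9), 5 did not pass the test and none was higher by edgeR or DESeq2, also at an unadjusted p under 0.05. TMED9 had the largest difference of all members. It read 109, 107, 112, 101 and 93.6 CPM in gCtl, 65.3, 47.5 and 41.8 in g1, and 32.8 and 29.1 in g2 (ENSG00000184840.11, chr5:177592158-177596124, plus strand). The 3 groups were separate from each other, with g2 lowest. The pooled difference was 2.41-fold (log2 fold change -1.27 ± 0.19, adjusted p = 0.000394), that with g1 2.03-fold (-1.02 ± 0.16, adjusted p = 0.000528) and that with g2 3.38-fold (-1.76 ± 0.19, adjusted p = 2.45e-05). These 3 calls were made in every alternative tried, including the test against a fold change of 1.5 (glmTreat) and each library left out in turn.

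TMED3 pairs with other p24 proteins in hetero-oligomers. It read 37.5, 41.2, 45.5, 38.9 and 42.1 CPM in gCtl, 27.9, 21.2 and 24.9 in g1, and 20.9 and 30 in g2 (ENSG00000166557.12, chr15:79311062-79427432, plus strand). All guide libraries were below all gCtl libraries. The pooled log2 fold change was -0.71 ± 0.14 (1.64-fold, adjusted p = 0.0027), with -0.73 ± 0.16 for g1 (adjusted p = 0.0058) and -0.69 ± 0.19 for g2 (adjusted p = 0.0144). Without g2 replicate 1 the g2 value was -0.46 (adjusted p = 0.108). The counts were divided among transcripts in unlike proportions. A transcript of 16555 bases held 34.6% of the counts in gCtl and 62.0% in g1 and g2, and a noncoding transcript of 938 bases held 18.4% and 0.512%. With coding transcripts alone the pooled value was -0.39 (adjusted p = 0.113). With limma on log2(TPM + 1), which divides by transcript length, it was -1.56 (adjusted p = 0.000212), and -1.47 and -1.70 for g1 and g2.

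The other p24 members did not pass the test. TMED5 was below gCtl in all guide libraries (42.8 to 48.1 CPM against 50.9 to 63.1 CPM), yet its pooled log2 fold change of -0.29 ± 0.11 (adjusted p = 0.0802) was not called. TMED10, a core p24 protein needed for the stability of the others, gave -0.11 ± 0.14 (adjusted p = 0.598), TMED2 gave 0.21 ± 0.13 (adjusted p = 0.274) and TMED4 gave 0.14 ± 0.12 (adjusted p = 0.444). For TMED7 the value was 0.23 ± 0.24 (adjusted p = 0.524). The summed level of the family was 448 to 478 CPM in gCtl and 362 to 405 CPM in the guide libraries.

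**Figure D2:**
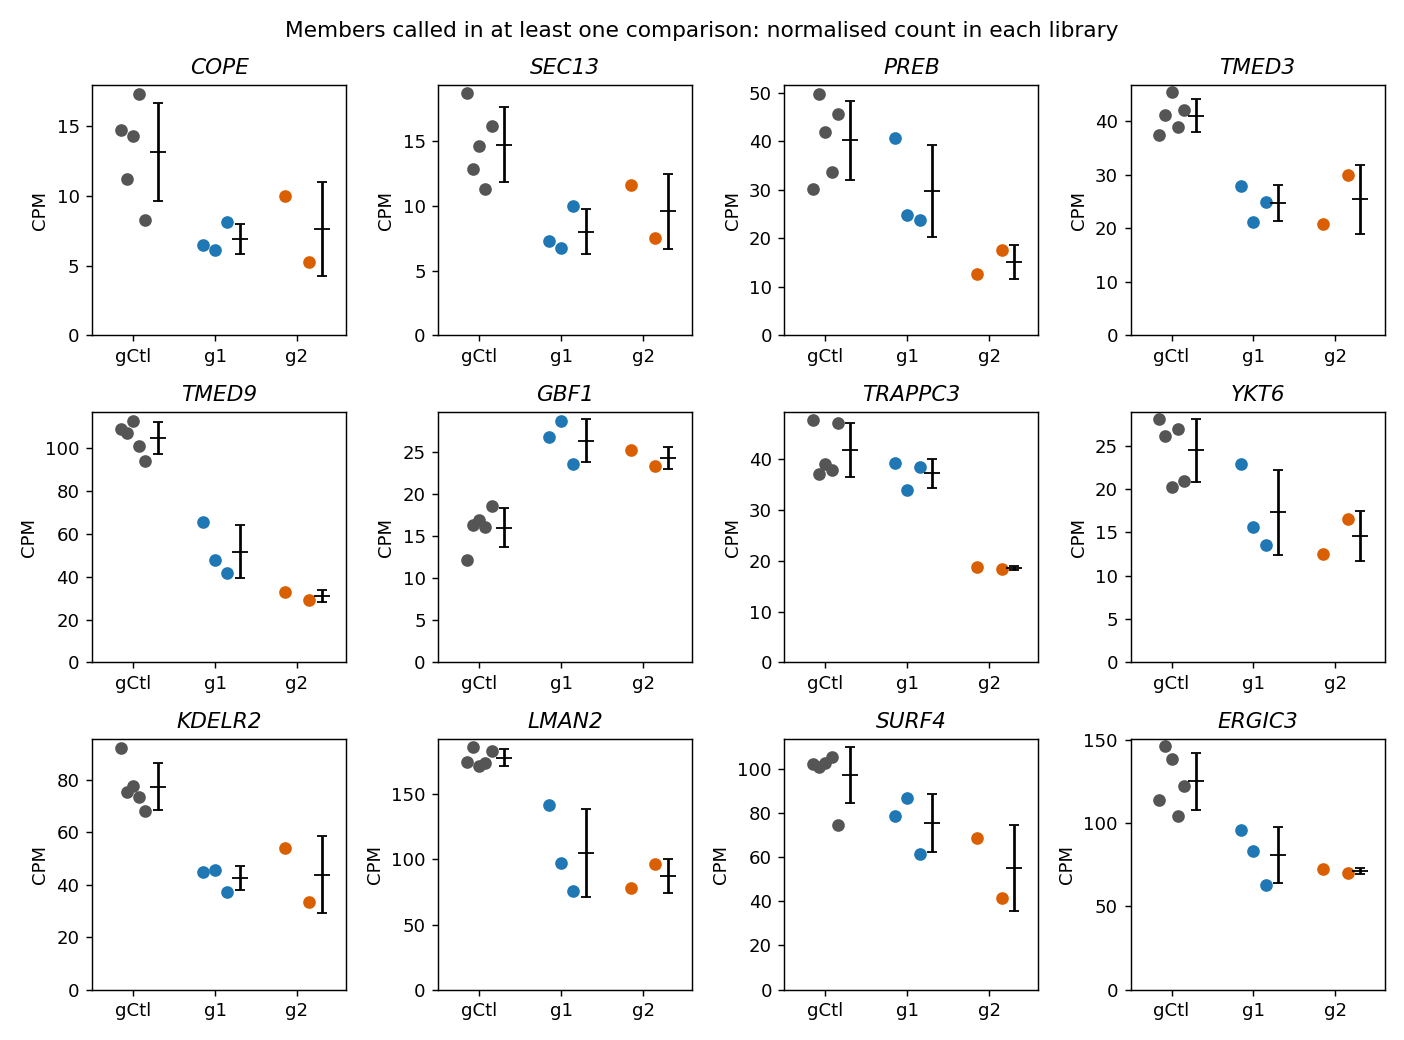
Each panel shows 1 of the 12 members called in at least 1 comparison, with the TMM-normalised CPM (linear axis from 0) of every gCtl, g1 and g2 library as a point and the mean ± SD beside each group. TMED9, TMED3, KDELR2, LMAN2 and ERGIC3 are lower in both guides without overlap with gCtl, GBF1 is higher in both, and TRAPPC3 is separated from gCtl in g2 alone.

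Of the 11 COPII and SAR1 genes tested, 2 were lower in the pooled comparison (SEC13 and PREB) and none was higher by edgeR or DESeq2, also at an unadjusted p under 0.05. PREB, the exchange factor that loads SAR1 with GTP at the ER, measured 30.3, 49.8, 41.9, 33.7 and 45.7 CPM in gCtl, 40.7, 24.9 and 23.7 in g1, and 12.7 and 17.6 in g2 (ENSG00000138073.13, chr2:27130756-27134675, minus strand). Both g2 libraries were well below gCtl, while g1 replicate 1 lay within the gCtl range. The log2 fold change was -1.41 ± 0.27 with g2 (2.65-fold, adjusted p = 0.00163) and -0.44 ± 0.21 with g1 (adjusted p = 0.158). The difference between the guides was -0.97 ± 0.28 (adjusted p = 0.0578). The pooled value of -0.76 ± 0.25 (adjusted p = 0.038) was not called once any one of 8 libraries was left out (-0.61 to -0.81, adjusted p = 0.0522 to 0.0996), the exceptions being gCtl replicate 1 and g1 replicate 1. ABHD1, on the opposite strand, overlaps the 3' end of PREB and had 207 counts over the 10 libraries against 1781 for PREB.

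SEC13 builds the outer COPII cage with SEC31A and is also a nuclear pore subunit. Its level was 18.8, 12.9, 14.7, 11.3 and 16.2 CPM in gCtl, 7.33, 6.75 and 9.98 in g1, and 11.6 and 7.56 in g2 (ENSG00000157020.17, chr3:10293131-10321178, minus strand). The g1 libraries were all below gCtl, and g2 replicate 1 lay inside the gCtl range. For g1 it was -0.86 ± 0.24 on the log2 scale (adjusted p = 0.021), whereas for g2 it was -0.62 ± 0.28 (adjusted p = 0.107). Pooled, it was -0.76 ± 0.21 (adjusted p = 0.0177), and -0.67 (adjusted p = 0.0524) without gCtl replicate 1. The g1 call was also lost without gCtl replicate 1, g1 replicate 1 or g1 replicate 2 (adjusted p = 0.0517, 0.0788 and 0.0841), and over coding transcripts alone the g1 value was -1.68 (adjusted p = 0.00142). Each library held only 32 to 92 estimated counts of SEC13, and the antisense gene GHRLOS at its 3' end had 262 counts in all against 643 for SEC13.

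The 9 other COPII genes tested did not pass. SEC31A, the partner of SEC13, spanned 107 to 199 CPM in gCtl and 100.3 to 223 CPM in the guide libraries (pooled log2 fold change 0.21 ± 0.20, adjusted p = 0.481). The inner coat genes SEC23A, SEC23B, SEC24A, SEC24B and SEC24D lay between -0.25 and 0.20 in the pooled comparison. SAR1A gave -0.04 ± 0.15 and SAR1B 0.06 ± 0.15, and SEC16A gave -0.34 ± 0.17 (adjusted p = 0.158).

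Of the 8 COPI coat subunits, 1 was lower in the pooled comparison and with g1 (COPE), and 0 were called with g2 by edgeR or DESeq2, where 2 were lower and 0 higher at an unadjusted p under 0.05. COPE encodes the epsilon subunit, which stabilises the alpha subunit in the outer part of the coat. It read 14.8, 11.2, 14.3, 17.3 and 8.27 CPM in gCtl, 6.50, 6.12 and 8.15 in g1, and 10.03 and 5.23 in g2 (ENSG00000105669.12, chr19:18899514-18919397, minus strand). The lowest gCtl library stood just above the highest g1 library, and the g2 libraries fell on both sides of it. The log2 fold change was -0.86 ± 0.24 pooled (adjusted p = 0.0196), -0.91 ± 0.28 with g1 (adjusted p = 0.0344) and, in g2, -0.79 ± 0.33 (adjusted p = 0.0862). The pooled value was -0.74 (adjusted p = 0.0625) without gCtl replicate 4, and the g1 call was lost without any of gCtl replicates 1, 3 and 4 or any g1 library (adjusted p = 0.0561 to 0.109). Each library held 29 to 82 counts of COPE, and 1.71% of these were assigned to coding transcripts, the rest being on transcripts annotated as noncoding.

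The other coat subunits did not pass the test. COPA, COPB1, COPB2, COPG1, COPG2, COPZ1 and ARCN1 had pooled log2 fold changes of -0.26 to 0.16 (adjusted p = 0.214 to 0.986). With g2, COPB2, a beta' subunit, gave -0.50 ± 0.17 (adjusted p = 0.0389), under the fold minimum. Their spread between libraries was wide in part, as for ARCN1, the delta subunit, which covered 76.3 to 111 CPM in gCtl and 59.3 to 108 CPM in the guide libraries.

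GBF1 was the one member that rose. It encodes the large exchange factor that activates ARF1 on cis-Golgi membranes ahead of COPI recruitment. It measured 12.3, 16.3, 16.9, 16.1 and 18.6 CPM in gCtl, 26.8, 28.7 and 23.6 in g1, and 25.3 and 23.4 in g2 (ENSG00000107862.4, chr10:102245532-102382899, plus strand). No guide library came down to the highest gCtl library. The log2 fold change was 0.66 ± 0.15 pooled (1.58-fold, adjusted p = 0.00698), 0.71 ± 0.17 with g1 (adjusted p = 0.00962) and, in g2, 0.59 ± 0.20 (1.51-fold, adjusted p = 0.0354). The pooled call was lost without gCtl replicate 1, which was the lowest (0.58, under the fold minimum, adjusted p = 0.0205). The g2 call was made without gCtl replicate 5, and not without any other single gCtl or g2 library. The ARF GTPases themselves were not called: ARF1 gave -0.38 ± 0.20 (adjusted p = 0.173), ARF3 -0.26 ± 0.15 (adjusted p = 0.218) and ARF4 -0.38 ± 0.20 (adjusted p = 0.182) in the pooled comparison, and ARF3 gave -0.55 ± 0.17 with g2 (adjusted p = 0.0249), under the fold minimum.

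TRAPPC3, a core subunit of the TRAPP complexes that tether carriers and activate RAB1, was lower with g2 alone. It measured 47.8, 37.1, 39.1, 37.8 and 47.1 CPM in gCtl, 39.2, 34.0 and 38.3 in g1, and 18.8 and 18.3 in g2 (ENSG00000054116.11, chr1:36136570-36156053, minus strand). The g2 libraries were close to each other and far below all others, and g1 overlapped gCtl. Compared with gCtl, g2 was lower by a log2 fold change of -1.17 ± 0.18 (2.25-fold, adjusted p = 0.000397). The g1 value was -0.17 ± 0.15 (adjusted p = 0.452), and pooled it was -0.49 ± 0.21 (adjusted p = 0.105). The TRAPPC3 counts were divided among transcripts in unlike proportions. A coding transcript of 1114 bases held 25.1% of them in gCtl and 3.51% in g1 and g2 together. A noncoding transcript of 2428 bases held 6.10% and 13.1%, and the main coding transcript 68.2% and 72.2%. USO1, the long coiled-coil tether p115, gave -0.44 ± 0.18 with g2 (adjusted p = 0.0763) and -0.08 ± 0.15 with g1 (adjusted p = 0.758).

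Of the 5 SNAREs, which drive the fusion of carriers with their target membrane, 1 was lower in the pooled comparison and with g2 (YKT6). YKT6 is a SNARE held to membranes by lipid anchors. Its level was 28.0, 26.1, 20.2, 27.0 and 20.9 CPM in gCtl, 22.8, 15.6 and 13.5 in g1, and 12.5 and 16.6 in g2 (ENSG00000106636.7, chr7:44200968-44214294, plus strand). The g2 libraries were below gCtl, and g1 replicate 1 was inside its range. The pooled log2 fold change of -0.59 ± 0.19 (1.504-fold, adjusted p = 0.0317) lay at the fold minimum and was not called without gCtl replicate 1, 2 or 4, g1 replicate 2 or 3, or g2 replicate 1 (-0.52 to -0.58, adjusted p = 0.0503 to 0.0791). With g2 it was -0.74 ± 0.25 (adjusted p = 0.0372) and was lost without gCtl replicate 1, 2 or 4 or either g2 library (adjusted p = 0.0616 to 0.172), and with g1 it was -0.50 ± 0.21 (adjusted p = 0.107). Only 15.3% of the YKT6 counts were on coding transcripts, and over these alone the pooled value was 0.63 (adjusted p = 0.678). SEC22B, GOSR2, STX5 and BET1 lay between -0.28 and 0.12 in the pooled comparison, with 8 to 34 counts per library for STX5.

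**Figure D3:**
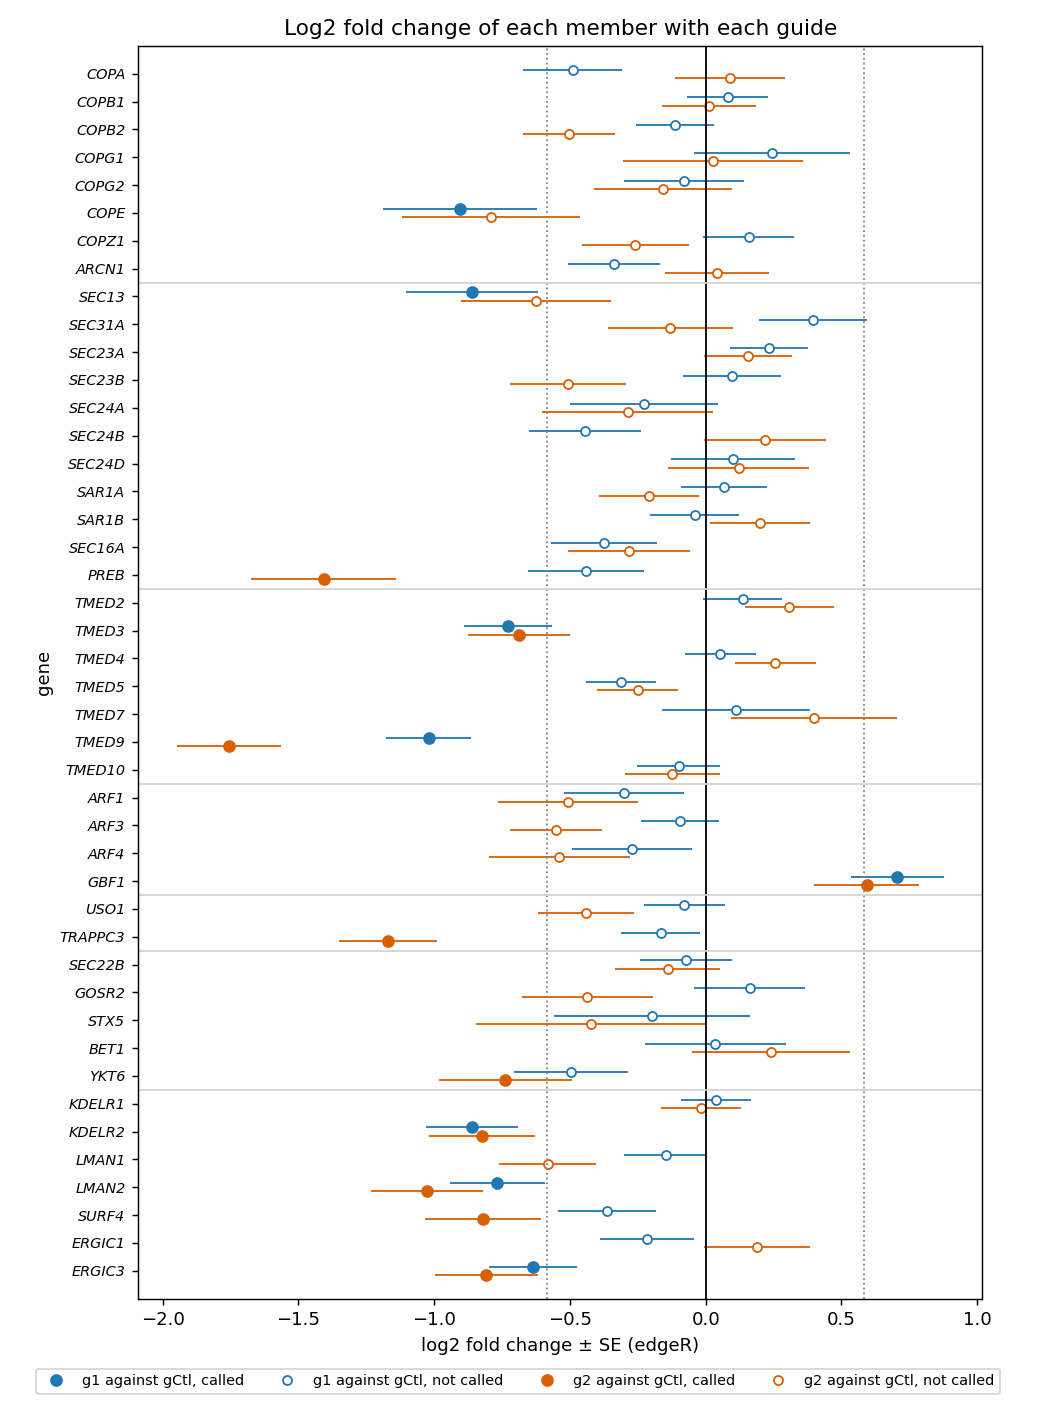
Points give the edgeR log2 fold change of g1 (blue) and g2 (orange) against the same 5 gCtl libraries for the 44 members tested, with bars of 1 SE, filled where called and open where not, and dotted lines at a fold change of 1.5. The filled points of both guides fall to the left of the lines for TMED3, TMED9, KDELR2, LMAN2 and ERGIC3 and to the right for GBF1, while PREB, TRAPPC3, YKT6 and SURF4 are filled for g2 alone and COPE and SEC13 for g1 alone.

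TMED3, TMED9, KDELR2, LMAN2 and ERGIC3 were called lower, and GBF1 higher, in each of the guide comparisons, which share their gCtl libraries. A call in one guide and not in the other does not show that the guides differ, so g2 was also set against g1. There 2 of the 44 members were lower and 0 were higher, against 3.42% and 1.56% of all genes tested (4.99% in either direction). At an unadjusted p under 0.05, 8 were lower and 2 higher, and DESeq2 called 3 lower (PREB added) and 0 higher. The 2 members were TRAPPC3 (log2 fold change -1.002 ± 0.19, adjusted p = 0.00709) and TMED9 (-0.74 ± 0.20, adjusted p = 0.043). TRAPPC3 was called without any single library, whereas TMED9 was not called without g1 replicate 1 or 2 or either g2 library (-0.53 to -0.81, adjusted p = 0.0555 to 0.164), and neither was called in a fit of the g1 and g2 libraries alone (adjusted p = 0.0624 and 0.183).

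Several steps of the pathway are served by pairs of related genes. TMED9 and TMED10 are related p24 proteins, which join in heteromeric assemblies and are not alternatives for the same step. A total of 8 ratios of related genes were compared within each library, as log2 ratios of (CPM + 1). In 3 of them g1 and g2 differed from gCtl, each with the smallest exact two-sided permutation p that 5 against 5 libraries can give (0.00794, adjusted over the 8 ratios 0.0212). The ratio of KDELR2 to KDELR1 was 0.13 ± 0.19 (SD, n = 5) in gCtl, -0.75 ± 0.13 in g1 and -0.70 ± 0.40 in g2. That of LMAN2 to LMAN1 was -0.33 ± 0.19 in gCtl, -0.98 ± 0.37 in g1 and -0.76 ± 0.12 in g2. For TMED9 to TMED10 it was 0.52 ± 0.15, -0.41 ± 0.17 and -1.09 ± 0.03. In these 3 pairs the 5 guide libraries were below all gCtl libraries. The numerators are the members called above, so the ratios repeat those values within libraries and are no separate measurement of them.

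The other ratios did not pass the test. That of SEC23B to SEC23A differed by -0.33 (p = 0.159, exact permutation), SAR1B to SAR1A by 0.09 (p = 0.833, exact permutation) and COPG2 to COPG1 by -0.26 (p = 0.357, exact permutation). The difference was 0.32 for SEC24C and SEC24D to SEC24A and SEC24B (p = 0.222, exact permutation) and 0.00 for ARF4 and ARF5 to ARF1 and ARF3 (p = 0.992, exact permutation). Adjusted over the 8 ratios these 5 exact p-values were 0.317 to 0.992. ARF5 and SEC24C had few counts of their own and share their 3' ends with other genes, so these ratios hold almost no signal of either and say nothing of them. COPG2 overlaps at its end with MEST, on the opposite strand, which held 692 counts against 592 for COPG2. Its ratio may therefore hold or lack reads of that end.

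The 4 members that were not tested had few counts of their own. SEC24C had at most 2.7 CPM in any library, TRAPPC1 at most 2.5, ARF5 at most 1.5 and TMED1 at most 0.18 CPM. For 3 of them the last 500 bases of a transcript also occur, on either strand, in transcripts of other genes that hold counts. SEC24C had 56.3 counts in all, and RP11-574K11.32, which overlaps its end on the opposite strand, had 663. TMED1 had 1.0 counts, and DNM2 transcripts that overlap its end on the opposite strand had 1346. ARF5 had 43.8, and transcripts of GCC1, on the opposite strand, and of FSCN3 that overlap its end had 6141. Summed with these regardless of strand, the ARF5 end measured 107 to 144 RPM in gCtl, 100.3 to 137 in g1, and 66.1 and 79.3 in g2. Reads of an end shared with an opposite-strand gene can be told apart only by strand, and the strand setting of the counting is not given. By this sequence criterion none of the 12 members called shares an end. An opposite-strand gene nonetheless lies in the last 1000 bases of PREB (ABHD1, 207 counts) and of SEC13 (GHRLOS, 262 counts), both called. Reads of these overlaps too can be told apart only by strand. Of the 48 members, 12 share an end by the sequence criterion, and 9 of these were tested and not called. Beside COPG2 these include SEC31A (8569 counts, with 1745 in THAP9-AS1), TMED2 (4180, with 1569 in AC055713.1) and ARF3 (4260, with 557 in AC073610.2 and AC073610.3), whose values may therefore hold part of, or lack part of, the reads of such an end. COPB2 (7607 counts) and TMED10 (3904) share no end by the sequence criterion. Their last 1000 bases still overlap an opposite-strand gene, MRPS22 (1963 counts) and AL049780.2 (25 counts), so the same may hold for them.

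Promoter windows of 300 bases (250 before and 50 after the start site, RefSeq, GRCh38.p14) were at hand for 41 members. They were searched on both strands for letters that ER stress factors are known to bind, since the early secretory pathway is a classical target of XBP1 and ATF6. The 8-letter core of the unfolded protein response element, TGACGTGG, occurred in the windows of 9 members (10 of 55 windows, 18.2%) and in 0.729% of all 35116 windows. The shorter CCACGT, which lies inside the reverse complement of TGACGTGG and so includes its matches, occurred in 22 members (49.1% of windows, 9.72% of all windows). The windows below hold TGACGTGG or its reverse complement, in capitals, and are shown because many of them belong to coat genes. Windows are read along the strand of the gene and stop 30 bases past the start site, and COPB2 holds a further copy.
COPA (chr1:160343221-160343265, minus strand): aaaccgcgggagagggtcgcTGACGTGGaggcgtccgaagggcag
COPB1 (chr11:14499832-14499879, minus strand): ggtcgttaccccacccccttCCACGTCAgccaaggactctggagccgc
COPB2 (chr3:139389816-139389863, minus strand): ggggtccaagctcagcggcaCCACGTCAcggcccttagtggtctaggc
SEC23A (chr14:39103212-39103259, minus strand): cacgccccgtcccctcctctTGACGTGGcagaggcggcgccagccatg
SEC24A (chr5:134648586-134648633, plus strand): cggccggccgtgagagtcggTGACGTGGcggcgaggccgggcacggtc
SEC16A (chr9:136484711-136484745, minus strand): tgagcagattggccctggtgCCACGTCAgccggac
ARF1 (chr1:228082672-228082719, plus strand): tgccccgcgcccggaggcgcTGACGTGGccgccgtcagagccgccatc
GBF1 (chr10:102245517-102245561, plus strand): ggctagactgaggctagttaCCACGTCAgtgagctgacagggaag
STX5 (chr11:62832040-62832087, minus strand): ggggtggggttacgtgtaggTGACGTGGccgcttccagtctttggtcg

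Of these 9 members GBF1 was the only one called in any comparison, and it rose. Among the members called lower in any comparison, 4 held the shorter CCACGT or its reverse complement (SEC13, TMED3, TRAPPC3 and SURF4). Over all members with a window, called or not, 22 of 41 did. The windows of SEC13, TRAPPC3 and SURF4 are shown with the match in capitals, and the match of TMED3 lay further past the start site.
SEC13 (chr3:10321083-10321108, minus strand): cgaggcgccgccgggagctgCCACGT
TRAPPC3 (chr1:36149524-36149569, minus strand): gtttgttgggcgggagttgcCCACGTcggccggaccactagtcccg
SURF4 (chr9:133376088-133376133, minus strand): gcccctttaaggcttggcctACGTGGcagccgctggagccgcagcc
The cyclic AMP response element TGACGTCA occurred in 1 member (TRAPPC1) and in 1.85% of all windows. The longer ER stress elements ERSE and ERSE-II were in 0 member windows and in 0.0769% and 0.0541% of all windows. KDELR2 and TMED9 had no window in the table. These matches are descriptions of letters and not of bound sites.

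Further lists hold genes that act beside the members. Of 66 other early secretory genes 60 were tested, and 6 were lower and 2 higher in the pooled comparison (10% and 3.33%). Over all genes tested these shares were 11.0% and 8.12%. The median log2 fold change of this list was -0.01. GORASP1, a Golgi stacking protein, fell with a log2 fold change of -2.05 ± 0.40 (adjusted p = 0.00231), resting on 85 counts in gCtl and 25 in the guide libraries. The Golgi SNARE BET1L gave -0.86 ± 0.29 (adjusted p = 0.0423), YIF1A -0.81 ± 0.18 (adjusted p = 0.00541) and the ER export factor BCAP31 -0.71 ± 0.16 (adjusted p = 0.00693). BET1L was called with g2 and not with g1 (g1 adjusted p = 0.181), and BCAP31 with g1 and not with g2 (g2 adjusted p = 0.0924). In both the libraries of the groups overlapped. SEC23IP, which binds SEC23 at exit sites, was higher by 0.67 ± 0.12 (adjusted p = 0.00184), with 40.3 to 49.8 CPM in gCtl and 63.4 to 85.6 CPM in g1 and g2. TRAPPC6B, another TRAPP subunit, was higher by 0.68 ± 0.19 (adjusted p = 0.0187). GORASP1, YIF1A, SEC23IP and TRAPPC6B were called with each guide.

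All 22 genes for the entry of proteins into the ER were tested, of which 7 were lower and 0 higher by edgeR (1 higher at an unadjusted p under 0.05, 6 lower and 0 higher by DESeq2), with a median log2 fold change of -0.25. The share lower by edgeR was 31.8%, against 11.0% of all genes tested. SRPRB, a subunit of the receptor for the signal recognition particle, gave -0.76 ± 0.14 (adjusted p = 0.00136) with 83.9 to 95.7 CPM in gCtl and 39.8 to 60.1 CPM in g1 and g2. SEC11A, a signal peptidase subunit, gave -0.76 ± 0.20 (adjusted p = 0.0137). SRPRB was called with each guide, and SEC11A with g2 (-1.27) and not with g1 (-0.50, under the fold minimum). For the translocon subunits the values were -1.68 ± 0.44 for SEC61G (adjusted p = 0.0128) and -1.42 ± 0.46 for SEC61B (adjusted p = 0.0356), and in both the libraries of the groups overlapped. Each was called with g1 and not with g2 (g2 adjusted p = 0.13 for SEC61G and 0.252 for SEC61B). Of 26 unfolded protein response genes 25 were tested and 1 (4%) was lower and 0 higher by edgeR and by DESeq2 (4 lower and 0 higher at an unadjusted p under 0.05), with a median of -0.14. That 1 was MANF, an ER-resident stress-induced factor, with -1.17 ± 0.27 (adjusted p = 0.00692). MANF was called with g1 and not with g2 (g2 adjusted p = 0.0821), and the libraries of the groups overlapped.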

How the data were processed

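RNA of 10 Caco-2 libraries was sequenced with the QuantSeq 3' kit. The authors deposited, for each library, estimated counts per transcript, not normalised, made with kallisto (version 42.5 in the submitters' processing notes). The strand setting of the counting is not given in the sources used here. In each library at least 75% of counted transcripts held values that were not whole. Estimated counts were summed per symbol and rounded. Protein-coding genes above 3 RPM in at least 20% of libraries were fitted with edgeR 4.0.16 in R 4.3.3 (TMM, glmQLFit, glmQLFTest), in 2 groups (g1 with g2 against gCtl) or 3, following the study's thresholds (Benjamini-Hochberg adjusted p of at most 0.05, fold change of at least 1.5). The study made its calls with other software (GeneSpring). It reported far fewer genes at these thresholds than the 2229 called here in the pooled comparison, so the calls are not the study's. SE is the log2 fold change divided by the root of the F statistic. CPM values use TMM library sizes. For ratios and LHFPL3-AS2 an exact permutation test, two-sided, was run on the log scale (scipy 1.17.1, pseudocount 1). Alternatives were DESeq2 1.42.0, other scalings and filters, limma 3.58.1 on log2 values, trends on length and GC removed, glmTreat and each library left out. Programs were tested on simulated data. Positions came from GENCODE release 29 (GRCh38), and shared ends were transcripts at 98% identity over 150 bases on either strand (blastn 2.17.0). All members are accounted for, those called in any comparison with every library, and at most 12 called genes of the other lists are named, by the largest change, of which 1 is not reported here. Members and lists were chosen with earlier results of these data known.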

Additional observations from a re-analysis of the deposited data

Results flagged for a closer look

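A total of 3 values stood far from the other libraries of gCtl by Dixon's test, among 44 members examined, where chance gives about 1 in 20. ARCN1 was highest in gCtl replicate 1, at 110.7 CPM against 76.3 to 83.1 CPM in the other gCtl libraries, with 59.3 to 74.3 CPM in g1 and 70.4 and 108 CPM in g2. TMED10 was lowest in gCtl replicate 5, at 54.78 CPM against 75.0 to 83.1 CPM, with 58.8 to 76.4 CPM in g1 and 62.2 and 71.8 CPM in g2. SURF4 was also lowest in gCtl replicate 5, at 74.59 CPM against 100.6 to 105 CPM, with 61.3 to 86.9 CPM in g1 and 41.3 and 68.8 CPM in g2.

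Both members that differed between the guides by the test of g2 against g1 were lower in g2. TMED9 had a log2 fold change of -0.74 and TRAPPC3 one of -1.002. In TMED9 each guide was below gCtl, whereas in TRAPPC3 the g1 libraries overlapped gCtl. The labels give no batch, so guide and any batch of library preparation cannot be told apart.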

How the results depend on the processing

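Precision was limited by 2 to 5 libraries per group and, for members such as COPE, SEC13 and STX5, by fewer than 100 counts in each library. No paired analysis was possible because the labels carry no replicate numbers or batches. The pooled count of 9 lower members was 4 with the length trend removed, 4 with GC and length trends removed and 1 with glmTreat (TMED9). Of all genes tested, 9.47%, 8.97% and 2.85% were called lower in these 3 settings. With 1 library left out, 6 to 10 members were lower, and 8.56% to 12.5% of all genes tested. The 1 higher member was 0 with library totals, limma on log2(RPM + 1), limma on log2(TPM + 1), the length trend removed, and glmTreat, and 0 to 1 with a library left out. For g1, 7 lower became 4 with GC and length trends removed and 1 with glmTreat, and 5 to 7 with a library left out, and 1 higher became 0 with limma on log2(TPM + 1) and with glmTreat, and stayed 1 with each library left out. For g2, 9 lower became 16 with library totals, 17 with limma on log2(RPM + 1) and 3 with glmTreat. Of all genes tested, 17.7%, 18.2% and 4.45% were called lower with g2 in these settings. With a library left out 7 to 13 members were lower with g2, and 7.39% to 14.8% of all genes tested. The 1 higher with g2 became 0 in 9 settings (library totals, no filter, all biotypes, both limma fits, both trend removals, glmTreat and only the compared groups) and 0 to 1 with a library left out. For g2 against g1, 2 lower became 1 with all biotypes, coding transcripts only and GC and length trends removed (2.81%, 2.28% and 3.28% of all genes tested were lower). The 2 became 0 with glmTreat and with only the compared groups (0.602% and 0.877% of all genes). With a library left out 1 to 4 members were lower (4 without g2 replicate 1), and 1.60% to 4.57% of all genes tested. Over coding transcripts alone YKT6 was at 0.63 pooled and 0.90 with g2. Library totals in place of TMM moved the median of all genes to -0.07 pooled, -0.16 with g2 and -0.10 for g2 against g1, and the split of lower and higher calls over all genes from 1285 and 944 to 1560 and 685 pooled, from 1512 and 1239 to 2058 and 748 with g2, and from 398 and 182 to 629 and 125 for g2 against g1. On log2(RPM + 1) limma gave 1615 and 631, 2118 and 657, and 660 and 118, and on log2(TPM + 1) 1408 and 669, 1913 and 596, and 557 and 63. With a library left out, the ratio of SAR1B to SAR1A ranged from -0.13 to 0.20, ARF4 and ARF5 to ARF1 and ARF3 from -0.14 to 0.12, SEC23B to SEC23A from -0.46 to -0.23 (exact permutation p = 0.0476 without g1 replicate 2) and SEC24C and SEC24D to SEC24A and SEC24B from 0.21 to 0.50 (exact permutation p = 0.0317 without g2 replicate 1). With RPM the ratios of KDELR2, LMAN2 and TMED9 kept direction and side of the threshold. As their groups do not overlap, leaving out a library could not change that and says nothing of stability. The cause of the shifts was not tested.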

Other observations

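Some members are neighbours on a chromosome, which the choice by symbol did not use (positions on GRCh38, GENCODE release 29). LMAN2 and TMED9, both lower with each guide, lie 240305 bases apart on chromosome 5. This stretch was looked at after their values were seen. Of the 5 genes tested between them, 2 were lower in the pooled comparison and 3 were not called, where 11.0% of all genes tested were called lower. F12, which encodes coagulation factor XII, had a log2 fold change of -1.52 ± 0.21 (adjusted p = 0.000229), and DDX41, a DEAD-box helicase, of -0.72 ± 0.17 (adjusted p = 0.00722). GRK6 was at -0.00 ± 0.20 (adjusted p = 0.992), DBN1 at -0.20 ± 0.22 (adjusted p = 0.547) and FAM193B at 0.50 ± 0.22 (adjusted p = 0.109).

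YKT6 and TMED4 are 363599 bases apart on chromosome 7, of which YKT6 was called lower and TMED4 was not called. The 5' ends of SAR1B and SEC24A overlap by 483 bases on opposite strands of chromosome 5, and neither was called in any comparison.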
